A study of Mus musculus with 3 samples.

Results

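The AP-1 family genes were examined in DNase-seq data of natural killer cells, as 10 genes of the 21951 protein-coding genes of the annotation. The 10 were taken by name: Jun, Junb and Jund (the Jun proteins), Fos, Fosb, Fosl1 and Fosl2 (the Fos proteins), Batf and Batf3 (short relatives) and Maff (a small Maf protein). For each gene, peaks and footprints were collected in a window that holds the gene body with 20 kb on each side, and all 10 windows held peaks in each library. The 3 libraries form 1 group: primary natural killer cells, innate lymphocytes that destroy virus-infected and tumour cells, from adult, virgin male mice of the strain B6CASTF1/J, a cross of C57BL/6J and CAST/EiJ, at 2 months of age. The libraries carry 1 donor label and different biosample labels, and no source used here states that they came from separate animals, so p-values here measure only the spread between libraries, which can be technical. No treatment is named, and the labels name no sort or gate. With 1 group there was no comparison between conditions.

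AP-1 is a dimer of basic leucine zipper (bZIP) proteins that binds the TPA response element (TRE) and the related cyclic AMP response element (CRE). Jun proteins pair with each other or with Fos proteins, Batf and Batf3 pair with Jun proteins and with IRF factors in lymphoid and myeloid cells, and small Maf proteins such as Maff pair with other bZIP factors. Fos, Fosb, Jun and Junb are immediate early genes, transcribed within minutes of a stimulus through factors already bound at their promoters. In natural killer cells AP-1 acts downstream of activating receptors and cytokines on effector genes such as Ifng. The enzyme DNase I cleaves open chromatin most readily, so a peak of cuts marks an accessible site, and a footprint is a short stretch inside it that was cut less often than its flanks.

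The DNA next to the start sites is shown first, since many of the footprints discussed below lie in it. Each line gives the strand on which the gene is transcribed, read 5' to 3', from the mm10 reference (RefSeq assembly GRCm38.p6), which is C57BL/6J sequence. Capitals mark the bases that lay under a footprint in all 3 replicates, and each line ends at an annotated start site, except that of Fos, which is the first 300 bases of its promoter peak. The Jun line is chr4:95052223-95052422 (minus strand), Junb is chr8:84978719-84978918 (minus), Jund is chr8:70698749-70698948 (plus) and Fos is chr12:85473541-85473840 (plus). Fosb is chr7:19310052-19310351 (minus), Batf is chr12:85686469-85686668 (plus), and Maff is chr15:79347320-79347519 (plus), which ends at the second annotated start of the gene, in its strongest promoter peak.
Jun promoter: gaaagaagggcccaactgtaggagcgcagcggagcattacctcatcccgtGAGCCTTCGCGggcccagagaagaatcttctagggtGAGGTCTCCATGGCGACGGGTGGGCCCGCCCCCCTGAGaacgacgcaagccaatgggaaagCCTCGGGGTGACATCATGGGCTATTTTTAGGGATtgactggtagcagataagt
Junb promoter: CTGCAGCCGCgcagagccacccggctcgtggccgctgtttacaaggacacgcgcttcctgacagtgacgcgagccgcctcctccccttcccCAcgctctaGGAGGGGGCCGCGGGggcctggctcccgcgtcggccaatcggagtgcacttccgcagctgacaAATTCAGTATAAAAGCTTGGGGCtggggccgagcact
Jund promoter: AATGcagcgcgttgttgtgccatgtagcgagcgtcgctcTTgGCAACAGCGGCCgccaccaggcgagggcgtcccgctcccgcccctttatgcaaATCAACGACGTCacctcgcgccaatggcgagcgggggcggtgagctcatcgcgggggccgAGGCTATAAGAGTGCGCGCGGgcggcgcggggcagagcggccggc
Fos promoter: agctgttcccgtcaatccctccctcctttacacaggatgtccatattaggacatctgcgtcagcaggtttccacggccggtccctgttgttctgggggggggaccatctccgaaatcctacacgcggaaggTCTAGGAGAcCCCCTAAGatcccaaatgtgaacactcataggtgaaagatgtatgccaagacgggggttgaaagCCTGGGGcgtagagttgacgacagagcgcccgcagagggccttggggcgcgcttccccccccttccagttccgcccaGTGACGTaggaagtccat
Fosb promoter: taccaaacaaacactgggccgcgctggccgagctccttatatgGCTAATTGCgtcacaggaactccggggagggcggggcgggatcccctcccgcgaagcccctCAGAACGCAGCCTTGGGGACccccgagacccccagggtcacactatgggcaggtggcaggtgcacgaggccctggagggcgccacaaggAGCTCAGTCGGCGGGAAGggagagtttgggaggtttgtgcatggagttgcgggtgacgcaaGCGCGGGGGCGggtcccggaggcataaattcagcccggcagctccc
Maff promoter: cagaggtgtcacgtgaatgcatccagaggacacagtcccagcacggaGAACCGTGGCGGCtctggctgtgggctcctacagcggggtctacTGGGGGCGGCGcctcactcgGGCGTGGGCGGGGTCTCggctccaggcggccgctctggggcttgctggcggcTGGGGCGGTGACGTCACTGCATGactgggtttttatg
Batf promoter: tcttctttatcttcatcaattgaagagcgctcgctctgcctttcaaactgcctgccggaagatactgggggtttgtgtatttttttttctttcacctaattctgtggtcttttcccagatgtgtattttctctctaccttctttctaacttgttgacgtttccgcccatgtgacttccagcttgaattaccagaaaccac
Of the 200 printed bases, 83 were under a footprint in all 3 replicates at Jun, 64 at Maff, 51 at Jund and 50 at Junb, against 0 at Batf. Of the 300 printed bases, 58 were so at Fosb and 31 at Fos. In the 200 bases before the first start of Fosl2 and of Fosl1, not printed here, 10 and 0 were so.

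A second set shows accessible sites of the Fos, Fosb and Junb windows that lay away from the coding start. The first lies 18.5 kb upstream of Fos at chr12:85455201-85455500 (plus strand), and the second 12.2 kb downstream of the Fos start at chr12:85485911-85486210 (plus). The third lies 10.1 kb upstream of Fosb at chr7:19319961-19320240 (minus) and overlaps an exon of the long noncoding gene D830036C21Rik. The fourth lies 1.3 kb upstream of Junb at chr8:84979881-84980180 (minus), and the last 2.1 kb downstream of the Junb start at chr8:84976451-84976750 (minus), past the end of the coding transcript and at the start of a noncoding Junb transcript.
Fos upstream: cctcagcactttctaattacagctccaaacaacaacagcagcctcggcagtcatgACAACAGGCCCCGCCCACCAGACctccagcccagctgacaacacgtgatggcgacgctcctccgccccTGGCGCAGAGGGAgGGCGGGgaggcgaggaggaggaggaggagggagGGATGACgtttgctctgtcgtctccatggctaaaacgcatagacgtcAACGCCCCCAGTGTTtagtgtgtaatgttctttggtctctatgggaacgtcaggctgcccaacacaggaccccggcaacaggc
Fos downstream: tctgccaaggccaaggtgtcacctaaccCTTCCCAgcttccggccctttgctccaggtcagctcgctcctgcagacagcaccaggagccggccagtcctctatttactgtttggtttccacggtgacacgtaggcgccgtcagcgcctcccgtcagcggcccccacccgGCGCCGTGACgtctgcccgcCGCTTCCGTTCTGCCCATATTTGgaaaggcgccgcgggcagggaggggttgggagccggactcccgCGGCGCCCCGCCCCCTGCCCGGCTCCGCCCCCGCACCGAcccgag
Fosb upstream: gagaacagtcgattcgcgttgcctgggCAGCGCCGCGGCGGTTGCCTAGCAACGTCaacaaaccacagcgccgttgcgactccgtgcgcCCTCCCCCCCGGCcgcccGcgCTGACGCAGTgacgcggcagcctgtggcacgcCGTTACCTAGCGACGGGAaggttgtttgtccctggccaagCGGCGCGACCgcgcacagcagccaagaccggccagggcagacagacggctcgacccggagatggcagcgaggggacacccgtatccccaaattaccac
Junb upstream: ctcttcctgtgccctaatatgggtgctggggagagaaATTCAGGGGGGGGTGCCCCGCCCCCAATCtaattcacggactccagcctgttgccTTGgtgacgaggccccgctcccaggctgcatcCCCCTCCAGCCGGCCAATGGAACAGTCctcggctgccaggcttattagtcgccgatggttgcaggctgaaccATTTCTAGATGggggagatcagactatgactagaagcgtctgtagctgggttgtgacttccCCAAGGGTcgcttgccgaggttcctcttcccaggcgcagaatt
Junb downstream: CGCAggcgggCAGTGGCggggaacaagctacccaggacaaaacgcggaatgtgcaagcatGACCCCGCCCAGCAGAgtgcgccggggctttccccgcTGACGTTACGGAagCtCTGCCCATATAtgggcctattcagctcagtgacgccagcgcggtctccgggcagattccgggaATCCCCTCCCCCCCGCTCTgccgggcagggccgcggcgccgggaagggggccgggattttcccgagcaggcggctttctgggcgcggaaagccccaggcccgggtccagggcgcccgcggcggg
Between 64 (Fos upstream) and 81 (Fosb upstream) of these bases lay under a footprint in all 3 replicates.

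Replicates 1, 2 and 3 held 40484, 84564 and 81854 peaks and 101990, 239483 and 222990 footprints. Read depth is unknown from these files. The promoter of Ncr1, which encodes a receptor that defines natural killer cells, lay at percentiles 77.5, 81.1 and 90.3, and 7 of 10 natural killer markers had a promoter peak in all 3 replicates. Among these 7 markers Il2rb (91.7 ± 4.30) and Prf1 (90.5 ± 3.75) had the highest mean percentile, and Klrk1 (55.2 ± 12.6) and Eomes (73.3 ± 8.86) the lowest (SD, n = 3). Over the natural killer markers with a promoter peak, the median percentile was 79.4, 76.0 and 86.4 in replicates 1, 2 and 3. B cell marker promoters were open at 6, 9 and 8 of 10 genes in replicates 1, 2 and 3. Their median percentiles were 33.7, 84.8 and 73.4, above the natural killer median in replicate 2 and below it in replicates 1 and 3. Of the 6 open in all 3 replicates, Ebf1 (76.6 ± 17.2) and Cr2 (76.1 ± 17.8) were the highest, Ms4a1 (55.1 ± 37.1) and Cd79b (57.2 ± 33.0) the lowest, and Vpreb3 had no promoter peak. Promoters of T cell markers were open at 3, 8 and 6 of 10 genes in replicates 1, 2 and 3, again fewest in replicate 1. Natural killer markers were likewise open at 7, 10 and 10 genes, and 52.8%, 60.1% and 59.3% of all protein-coding genes were open. Of 10 genes in each list, T cell markers were open in all 3 replicates at Cd28 (82.5 ± 10.1), Lef1 (70.0 ± 8.28) and Cd3d (63.1 ± 20.4), with no peak at Cd4 and Cd8a, and monocyte and macrophage markers at Cd68 (80.4 ± 15.2) and Cebpa (78.3 ± 9.10), with no peak at Csf1r, Adgre1, C1qa and Ly6c2. None of the 10 neutrophil markers (S100a8, S100a9, Camp, Ngp, Ltf, Elane, Mpo, Cebpe, Ly6g and Retnlg) had a promoter peak in any replicate, and the erythroid markers Hba-a1, Hbb-bs, Alas2, Klf1, Slc4a1, Epb42 and Rhag had none either. The part of these other cell types in the differences between replicates given below was not tested.

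In all, 9 of the 10 AP-1 genes had an open promoter in all 3 replicates, the exception being Batf3. A promoter here spans 500 bp to either side of any annotated start site of the gene, and counts as open where a peak overlaps it. By the same rule 52.4% of all protein-coding genes were open. Taken singly, replicate 1 had 9 open AP-1 promoters (52.8% of all genes), and replicates 2 and 3 had 10 each (60.1% and 59.3%). Since the scale of the deposited peak signal differs between libraries, the signal of the strongest promoter peak was expressed as its percentile among all peaks of its library. The percentile was 90 or higher in all 3 replicates for 7 AP-1 genes (Jun, Junb, Jund, Fos, Fosb, Fosl2 and Maff), against 18.2% of all genes and 34.8% of the genes open in all 3 replicates. The median over AP-1 genes with a promoter peak was 94.5, 96.3 and 96.9 in replicates 1, 2 and 3 (95.9 ± 1.22, SD, n = 3), and that over all genes was 84.3, 90.5 and 90 (88.3 ± 3.44). In bulk cells, a larger share of cells with an open site and a site that is more open per cell cannot be told apart.

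The Jun proteins, which supply the partner for most AP-1 dimers, had the most accessible promoters of the family. At Jund, the member with the steadiest expression in most cells, the deposited signal was 11.4, 27.2 and 26.4 in replicates 1, 2 and 3, at percentiles 99.5, 99.7 and 99.6. At Jun the signal was 9.97, 27.0 and 28.9, at percentiles 98.8, 99.7 and 99.7. The promoters of Jund and Jun thus ranked near the top of every library, and their mean percentiles of 99.6 ± 0.139 and 99.4 ± 0.525 did not differ beyond the spread between replicates. Junb, a Jun protein that can oppose Jun at target genes, had percentiles of 95.9, 98.3 and 98.6, lower than Jun in all 3 replicates. In replicate 1 the strongest promoter peak of Junb was not the one at the coding start (signal 6.83, percentile 95.1) but the one 2.1 kb downstream (signal 7.28, percentile 95.9). At Jun, replicate 1 held a further peak at chr4:95052461-95052840, next to the promoter peak, with a signal of 5.43. Replicates 2 and 3 had no separate peak there, although each of the 3 libraries had 7 footprints in this interval.

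The Fos proteins, which bind DNA as partners of Jun proteins, were open in all 3 replicates but spanned a wider range. At Fos the promoter signal was 6.83, 11.1 and 10.1, at percentiles 95.1, 95.5 and 94.3. At Fosb, a close relative of Fos with similar induction, the signal was 6.55, 14.5 and 14.7, at percentiles 94.5, 97.2 and 96.9. Fosl2, which encodes Fra-2, had a signal of 4.98, 10.3 and 14.3 and percentiles of 90.4, 94.9 and 96.8. These 3 promoters were at percentile 90 or higher in each library, with the values of Fos closest together (SD 0.609) and those of Fosl2 farthest apart (SD 3.30). Fosl1, which encodes Fra-1, was the lowest Fos promoter, with a signal of 2.06, 5.43 and 5.89 at percentiles 72.8, 89.5 and 89.4. It lay below the median of all open promoters in each of the 3 libraries, and below Fosl2 in each.

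Batf and Batf3, which lack the transactivation domains of Fos, had the least accessible promoters of the family. At Batf the signal was 1.09, 2.76 and 3.01, at percentiles 50.6, 80.5 and 80.2, and replicate 1 stood apart from the other replicates. At Batf3 no promoter peak was found in replicate 1, and the signal was 0.821 in replicate 2 and 0.724 in replicate 3, at percentiles 49.7 and 43.1. Of the 2538 bases of the Batf3 promoters, 0 lay in intervals with a false discovery rate of 0.05 or less in replicate 1, 215 in replicate 2 and 488 in replicate 3. The Batf3 promoter thus had little signal in replicates 2 and 3 and no call in replicate 1. Lowest values in replicate 1 were not limited to these genes. The median of all open promoters was lowest there (84.3), as were the B cell marker promoters given above. Among the natural killer markers open in all 3 replicates, all but Nkg7 were lowest there too. The reason for the low values of Batf and Batf3 in replicate 1 was not tested. Maff, which has no transactivation domain of its own, was open at several of its start sites. The signal of its strongest promoter peak was 6.15, 14.7 and 17.9, at percentiles 93.7, 97.3 and 98.1. This peak lay 0.8 kb downstream of the first start site, where the promoter peak was weaker, with percentiles of 71.1, 79.9 and 87.5. With the first start site alone, the mean percentile of Maff was 79.5 in place of 96.3 ± 2.35.

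**Figure D1:**
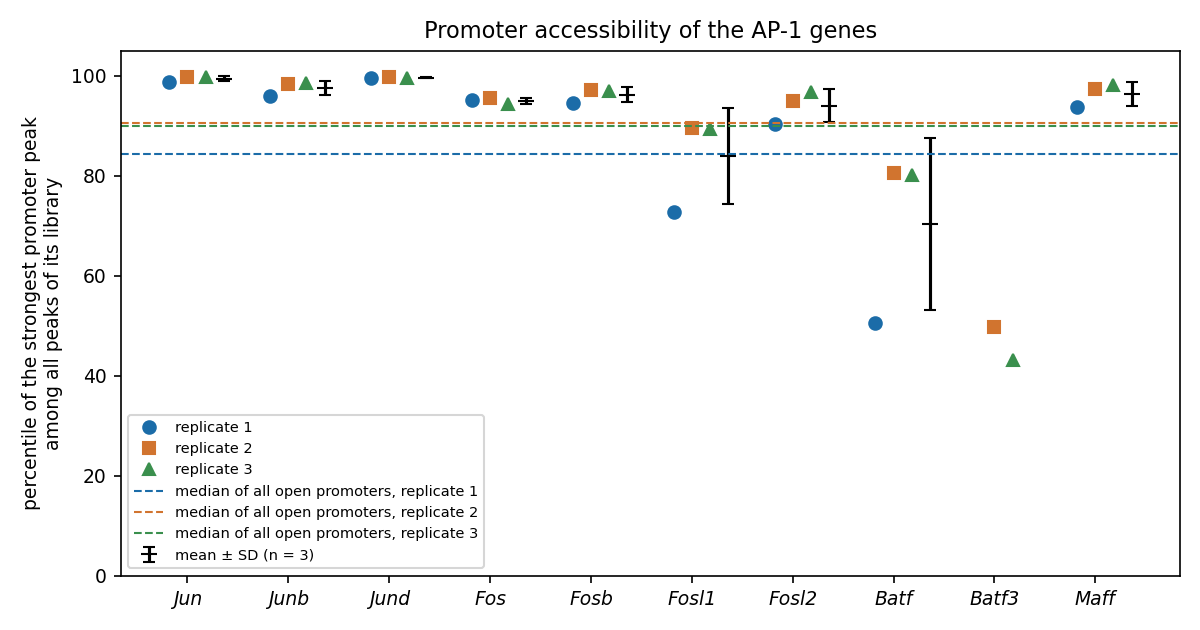
Percentile of the strongest promoter peak among all peaks of its library (vertical axis) for each AP-1 gene (horizontal axis), with 1 point per replicate and the mean ± SD over 3 replicates in black; dashed lines are the medians of all open promoters per library. Jund, Jun and Junb sit above 95 in each library, Fosl1 and Batf below the dashed line of their library, and Batf3 has no point for replicate 1.

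The order of mean percentiles was Jund, Jun, Junb, Maff, Fosb, Fos, Fosl2, Fosl1 and Batf, with Batf3 left out for want of a value in replicate 1. The order was made from these same percentiles, so each step between neighbours is positive in its mean by construction and only describes the order. Of the 8 steps, 4 went the same way in all 3 replicates with a mean above their SD. Jun exceeded Junb by 1.83 ± 0.923 percentile points, Junb exceeded Maff by 1.26 ± 0.909, Fosl2 exceeded Fosl1 by 10.1 ± 6.50 and Fosl1 exceeded Batf by 13.4 ± 7.59. Each of these had an exact two-sided sign-flip p of 0.25, the smallest that 3 libraries allow. The pairs Jund and Jun (0.170 ± 0.410), Maff and Fosb (0.106 ± 0.997), Fosb and Fos (1.29 ± 1.65) and Fos and Fosl2 (0.923 ± 3.62) did not differ beyond their spread. With the first start site only, Maff (79.5) fell below Fosl1 (83.9).

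Around the genes, the AP-1 windows were rich in accessible sites, most of all those of Fosb and Junb. The 10 windows held 77, 131 and 135 peaks in replicates 1, 2 and 3 (114 ± 32.4, SD, n = 3). Peaks that overlapped between libraries were joined into 144 regions, and 117 of them were found in at least 2 replicates. The number of such regions ran from 7 per window (Batf and Batf3) to 23 (Fosb), with a median of 9.50, against 4 over all protein-coding genes. Windows with 10 or more were those of 5 AP-1 genes (Junb, Jund, Fos, Fosb and Fosl1), and 11.3% of all genes had as many. The AP-1 genes are short, and their windows span 41.7 to 62.4 kb. Among the 12476 genes with windows of at most 62.4 kb, the median was 3.00 regions, and 6.58% had 10 or more. Per 100 kb of window, the median over AP-1 genes was 20.7 regions against 4.85 over all genes.

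Fosb showed the largest difference in number of peaks between libraries, with 9 peaks in its window in replicate 1 and 27 in each of replicates 2 and 3. At Junb the window held 16, 23 and 23 peaks, and at Jund 7, 12 and 15. At Fos it held 11, 12 and 11, so the Fos window had nearly as many peaks in the library with the fewest peaks as in the others. The remaining windows held 8, 11 and 11 peaks at Jun, 8, 10 and 11 at Fosl1, 6, 10 and 10 at Fosl2, 3, 7 and 8 at Batf, 2, 7 and 9 at Batf3, and 7, 12 and 10 at Maff. Replicate 1 had the fewest peaks in all of these windows except that of Fos, where it equalled replicate 3. Of the 144 regions, 67 were found in all 3 replicates (46.5%, against 35.3% of the 99408 regions of the genome). Another 50 were found in replicates 2 and 3 and not in replicate 1, and 5, 10 and 12 were found in replicate 1, 2 or 3 only. Over the genome, 64695 of the 99408 regions were found in both replicates 2 and 3, and 35126 in all 3. There, 2643, 16904 and 14057 regions were found in replicate 1, 2 or 3 only. Leaving out peaks at promoters of other protein-coding genes left 67, 115 and 117 peaks, since the Junb window also takes in 7 regions at such promoters and the Fosl1 window 5.

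**Figure D2:**
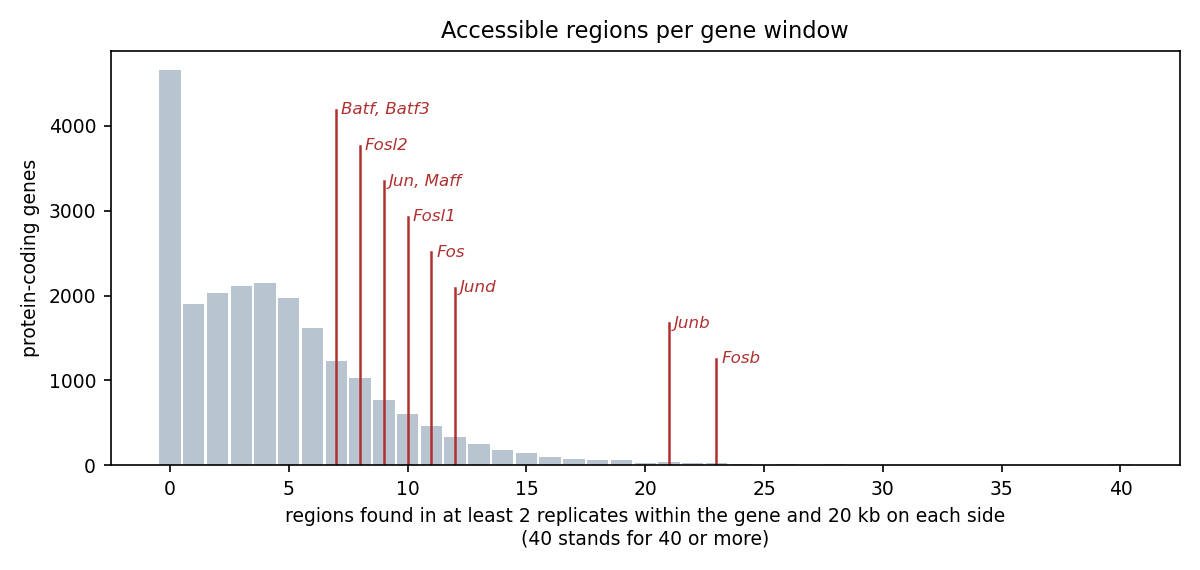
Number of accessible regions per gene window, counting those present in 2 or 3 libraries (horizontal axis), against the number of protein-coding genes with that count (vertical axis, grey bars); red lines mark the AP-1 genes. All 10 lie at 7 or more regions, and Junb (21) and Fosb (23) lie in the thin right tail.

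**Figure D3:**
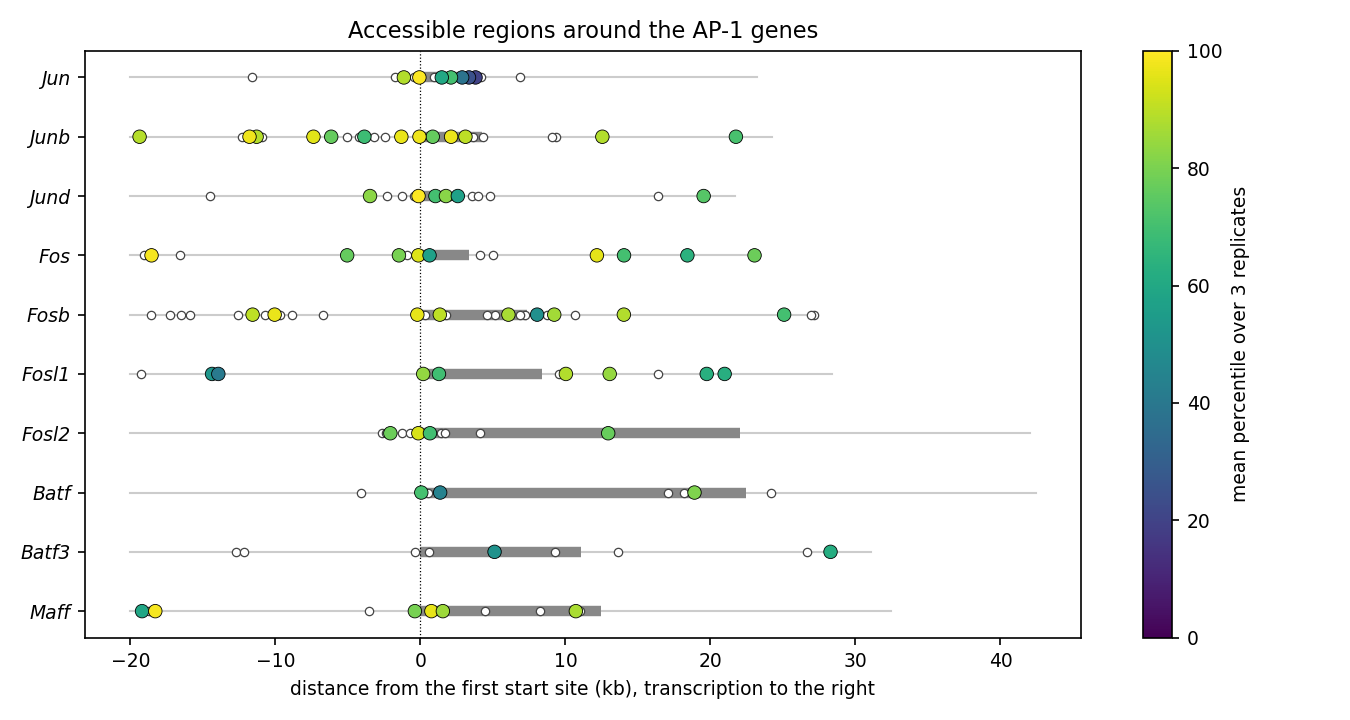
Position of every accessible region in the AP-1 windows relative to the first start site (horizontal axis, kb, transcription to the right), 1 line per gene, with the gene body as a thick bar. Large points are regions found in all 3 replicates, coloured by their mean percentile, and small open points are regions found in 1 or 2; bright points away from 0 appear at Fos, Fosb and Junb, while the bright points 18.3 kb upstream of Maff and 11.8 kb upstream of Junb are promoters of other genes.

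Sites that ranked as high as promoters also lay away from any annotated promoter of a protein-coding gene in the windows of Fos, Junb and Fosb. In all, 15 of the 144 regions were at percentile 90 or higher in all 3 replicates (3.94% in the genome), 8 of them at own promoters and 2 at promoters of other genes. Of the 103 regions away from promoters in the AP-1 windows, 5 were at percentile 90 or higher in all 3 replicates, against 0.504% of the 75444 in the genome. The strongest was the site 18.5 kb upstream of Fos, with a signal of 8.64, 20.6 and 20.7 and percentiles of 97.8, 99.0 and 98.8. It ranked above the promoter of Fos itself in each library. The site 12.2 kb downstream of the Fos start was at 92.9, 97.1 and 97.3, lower than the Fos promoter in replicate 1 and higher in replicates 2 and 3. The site 10.1 kb upstream of Fosb was at 95.4, 97.3 and 97.6, above the Fosb promoter in each library. Junb had such sites 1.3 kb upstream, at 94.2, 97.8 and 98.0, and 7.4 kb upstream, at 93.1, 96.8 and 96.7. None lay in the windows of Jun, Jund, Fosl1, Fosl2, Batf, Batf3 or Maff.

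The strongest region of a window was therefore not always at the gene's own promoter. It was the own promoter at Jun, Jund and Fosl2, that is at 3 AP-1 genes, against 46.1% of the 15848 genes with a region in all 3 replicates. The strongest region was the one with the highest mean percentile among regions found in all 3 replicates. At Junb it was the promoter of Hook2 (95.5, 98.5 and 98.6), by a small margin over the Junb start (95.1, 98.3 and 98.6) and below the Junb downstream site in replicate 1 (95.9). At Maff it was the promoter of Pla2g6 (97.5, 99.0 and 99.3) and, at Fosl1, that of Ccdc85b (86.3, 90.6 and 88.4), although in replicate 3 the Fosl1 promoter (89.4) ranked higher. Thus 3 AP-1 genes had it at another gene's promoter, against 30.1% of genes. At Fos, Fosb, Batf and Batf3 it lay away from promoters, against 23.8% of genes. At Batf this was an intronic site 18.9 kb downstream of the start, with percentiles of 70.9, 84.5 and 86.6, higher than the promoter in each library. At Batf3 the strongest region found in all 3 replicates lay 28.3 kb downstream of the start, past the end of the gene, at 36.8, 75.5 and 73.5.

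Footprints were most numerous in the windows with the most peaks. Junb had the most, 62, 103 and 117 in replicates 1, 2 and 3, followed by Fosb with 34, 95 and 82. Fos had 43, 59 and 48 and Jund 29, 48 and 50. Batf3 had the fewest, 1, 13 and 19, and was the only window with fewer footprints than peaks in replicate 1 among these 10. The others had 23, 34 and 23 at Jun, 23, 50 and 44 at Maff, 14, 38 and 40 at Fosl1, 17, 34 and 35 at Fosl2 and 12, 28 and 34 at Batf. In all, the windows held 258, 502 and 492 footprints (417 ± 138), which is 3.35, 3.83 and 3.64 per peak against 2.52, 2.83 and 2.72 over the whole libraries. A smaller share of them lay inside peaks than in the whole libraries, 84.5%, 74.1% and 74.6% against 85.9%, 81.9% and 83.0%. Counting only footprints inside peaks gave 2.83, 2.84 and 2.72 per peak against 2.16, 2.32 and 2.26. The peaks of AP-1 windows had median percentiles of 70.8, 72.0 and 70.3, above the middle of each library. Their median width was 220 bp in each library, against 220, 200 and 200 bp over all peaks. Neither these values per peak nor the shares of shared regions, shared footprints and motifs were matched for peak rank or width.

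Footprints that overlapped between libraries formed 743 clusters in the AP-1 windows, of which 140 (18.8%) were present in all 3 replicates, against 15.6% in the genome. Fos had the highest share, with 25 of 76 clusters (32.9%) in all 3 replicates. Jund (22.5%), Junb (22.2%) and Jun (22.0%) came next, Batf had 10.9% and none of the 27 clusters of Batf3 was shared by all 3. The number of footprints differs between libraries, which limits how many can be shared.

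**Figure D4:**
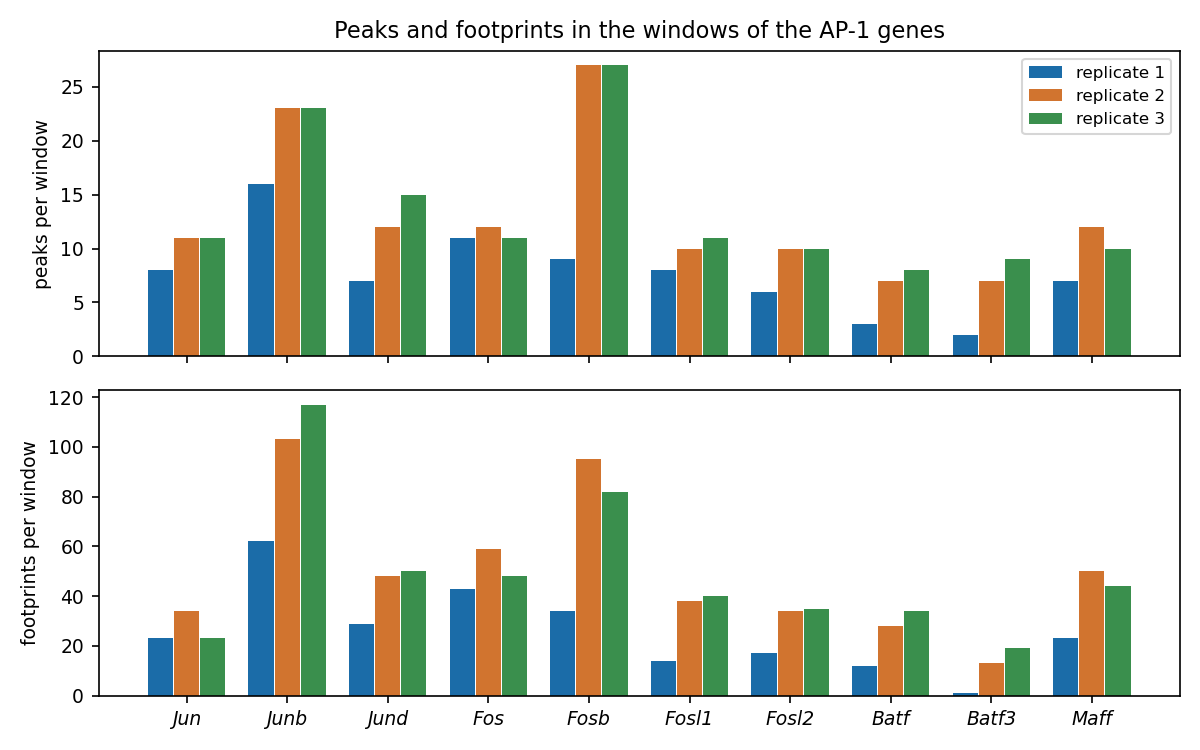
Number of peaks (upper panel) and footprints (lower panel) in the window of each AP-1 gene, with 1 bar per replicate. Junb and Fosb have the tallest bars in replicates 2 and 3, and the bars of Fos differ least between replicates in the upper panel.

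Sequence motifs were searched on both strands of the central 150 bp of every peak. A match is a description of the letters only. The CArG box, the site of serum response factor, was found in 2, 4 and 3 of the peaks in AP-1 windows in replicates 1, 2 and 3, a share of 2.62 ± 0.416% (SD, n = 3). Over all peaks the share was 0.556%, 0.589% and 0.607%. The CArG box was thus more frequent in AP-1 windows in each library, on few peaks. The core of the CRE, TGACGT, which lies inside the CRE and was added after the data were seen, was in 6, 13 and 11 peaks (8.62 ± 1.14%), against 4.75%, 4% and 4.24% of all peaks. The full CRE (TGACGTCA) was in 0, 1 and 1 peaks, and the background was 1.19%, 0.9% and 0.953%. When whole peaks were searched, the CRE went from lower to higher than the background, 1.87% against 1.27%.

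The GC box (GGGCGG), bound by Sp factors, was in 29, 35 and 35 peaks of AP-1 windows (30.1 ± 6.56%), against 24.3%, 17.1% and 17.3% of all peaks. The NF-kB site was searched as GGGRNNYYCC (R for A or G, Y for C or T, N for any base). This pattern also takes in GC-rich words such as GGGGCCCCCC at the Jund promoter. The site was in 10, 8 and 11 peaks (9.08 ± 3.53%), against 5.48%, 5.36% and 5.57%. Both were higher in AP-1 windows in all 3 replicates, and the NF-kB difference of 3.61 ± 3.50 percentage points was close to its SD. The TRE was searched as TGANTCA, which takes in words other than TGACTCA and TGAGTCA, such as TGAATCA in the Fosb window. This pattern was in 4, 13 and 11 peaks (7.76 ± 2.39%), against 5.17%, 6.47% and 7.49%. The difference of 1.38 ± 1.83 points was within its spread. The ETS core (CCGGAA) was in 3, 5 and 6 peaks (4.05 ± 0.342%), against 9.88%, 7.14% and 7.35%, and so was lower in each library. RUNX (TGTGGT), the motif of factors that act throughout lymphocyte development, was in 9, 23 and 25 peaks (15.9 ± 3.70%), against 14.9%, 17.6% and 19.2%, without one direction over the libraries.

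**Figure D5:**
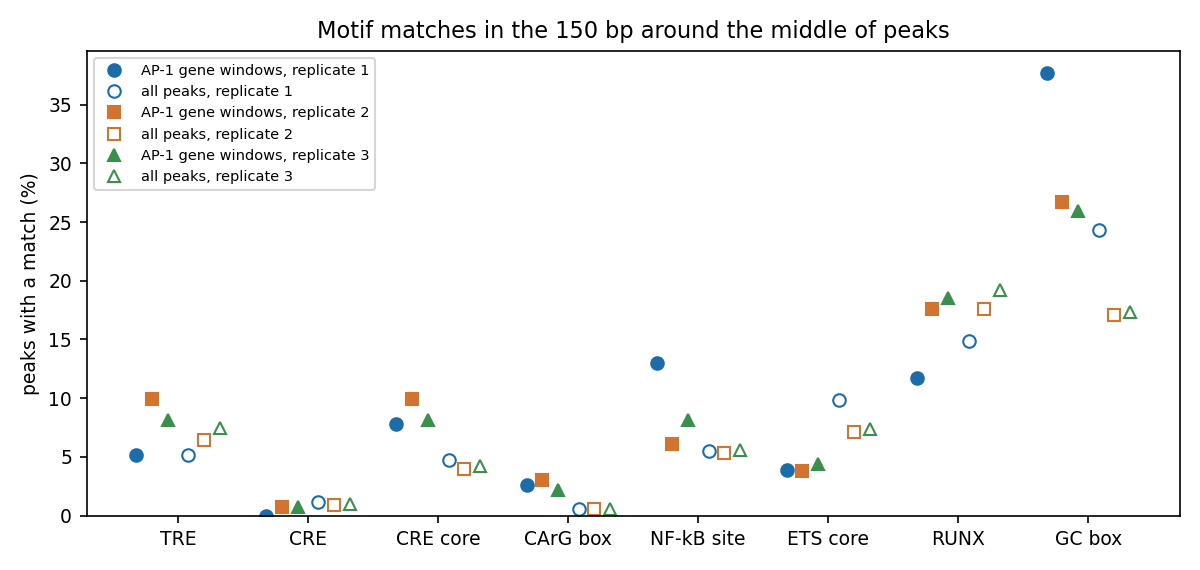
Share of peaks whose central 150 bp hold a motif match (vertical axis, %), for peaks in AP-1 windows (filled) and all peaks (open), with 1 point per replicate. The filled points lie above the open ones of the same replicate for the TRE, CArG box, CRE core, GC box and NF-kB site. They lie below them for the CRE and the ETS core. For the TRE in replicate 1 the points nearly coincide (5.19% against 5.17%).

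Footprints over the TRE pattern, which takes in the site that AP-1 itself binds, were about as frequent in AP-1 windows as elsewhere. Across whole regions there were 21 matches to this pattern, in the windows of 7 AP-1 genes. In all, 4 of them lay under a footprint in any replicate and 0 in all 3, where a match counted if at least 50% of it was covered. Per replicate 0 of 6, 2 of 18 and 2 of 16 matches were covered, near the 5.15%, 10.3% and 11.5% of TRE matches over all peaks. The Fosl1 promoter region holds TGAGTCA 353 bp downstream of the start, and the first Maff promoter region holds TGACTCA 350 bp upstream, both without a footprint in any replicate. The CRE was covered more often than the TRE, here and over all peaks. Its 2 matches, 210 bp upstream of the Jund start and 874 bp downstream of the first Maff start, were both under footprints in all 3 replicates, and over all peaks 71.3%, 80.2% and 80.4% of CRE matches were covered.

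At the promoters, footprints in all 3 replicates covered known control elements of the immediate early genes in part. The Jun promoter holds the variant TGACATCA 42 bp upstream of its start, near the end of the printed line, under a footprint in each library. This element is known as a binding site of Jun with ATF2. The Fos promoter holds the CRE core 63 bp upstream and a TATA box (TATAAA) 30 bp upstream of its start, and the Junb promoter a TATA box 28 bp upstream, each under a footprint in all 3 replicates. The CArG box of the Fos promoter, CCATATTAGG, lies 304 bp upstream in the serum response element, which has long been studied as the target of serum response factor with its ETS partners. It had no footprint in any of the 3 replicates. The CArG box of the Fosb promoter, CCTTATATGG at 262 bp upstream, had one in replicate 3 only.

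CArG boxes away from the coding start were covered in all 3 replicates at Junb and at Fos. CCATATATGG in the Junb downstream site and CCATATTTGG in the Fos downstream site, both within the printed lines, lay under a footprint in each library, and each of these lines also holds a TGACGT covered in all 3 replicates. CCTAATATGG in the Junb upstream site and CCATTTTTGG, 11533 bp upstream of the Jun start, had no footprint in any replicate, and CCTTTTAAGG at the Hook2 promoter had one in replicates 2 and 3. So 2 of the 7 CArG matches were covered in all 3 replicates. Per replicate 2 of 6, 2 of 6 and 3 of 5 matches in peaks were covered, against 13.7%, 14.3% and 16.5% of CArG matches over all peaks. The upstream Fos site holds TGACGT 3 times, of which 1 was covered in all 3 replicates, and the upstream Fosb site holds it once, covered in each.

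RefSeq promoters of 300 bp around each start on GRCm38.p6 matched 9 of the 10 genes by symbol (all but Fosl1), with 11 promoters in all. Of these 11, 8 held the GC box, against 35.7% of 32851 promoters, 4 the NF-kB site (8.46%), 3 the CRE core (7.51%) and 0 the TRE (7.81%). Of the AP-1 genes, 8 had an observed to expected CpG ratio of 0.6 or higher within 500 bp of the first start site. The ratio was highest at Jund (0.883) and Fosl2 (0.862) and lowest at Maff (0.225) and Batf (0.339), with a median of 0.725 against 0.553 over all genes. For Maff the first start is not the one in its strongest promoter peak, where the ratio was not taken. Of all 10076 genes at or above 0.6, 83.1% were open in all 3 replicates and 34.4% were at percentile 90 or higher. Of the 8 AP-1 genes, 7 and 6 were.

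Replicates 2 and 3 had similar numbers of peaks and could be compared site by site, as 1 library against 1 library with no replicate check. Over the 117 regions found in both, the log2 ratio of signal, centred on all shared regions, had a median of -0.09, and 51 were above 0. The middle of all 64695 shared regions ran from -0.30 to 0.27 between quartiles. The median of the Fos window was 0.24 with 8 of 11 regions above 0, and that of the Fosl2 window was -0.42 with 1 of 8 above 0. Fosb (-0.23) and Maff (-0.20) lay on the side of replicate 3, and the remaining windows lay between -0.10 and 0.07.

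Related gene lists give the setting of the family, and the highest and lowest genes named are those among genes open in all 3 replicates. Of 22 other bZIP genes, which include possible partners, 20 were open in all 3 replicates and 10 were at percentile 90 or higher. Atf7 (99.9 ± 0.00856) and Crem (99.4 ± 0.214) were highest, Jdp2 (59.6 ± 12.7) and Atf3 (78.7 ± 7.39) lowest. The bZIP windows had a median of 6.50 regions. Of 25 genes of the MAP kinase pathway, which phosphorylates Jun and activates transcription of Fos, 24 were open and 12 were at percentile 90 or higher, with a median of 8 regions. Dusp5 (99.8 ± 0.0527), a phosphatase that limits ERK signalling, and Map2k1 (99.8 ± 0.148), the kinase MEK1, were highest, Elk3 (57.1 ± 21) and Map3k5 (75.2 ± 7.93) lowest, and Mapk10, a JNK mainly of neurons, had no promoter peak. Of 17 other immediate early genes, 16 were open and 10 were at percentile 90 or higher, with a median of 9 regions, close to the 9.50 of the AP-1 genes. Klf6 (99.7 ± 0.158) and Ier5 (98.0 ± 0.498) were highest, and Myc (67.4 ± 10.7) and Egr3 (80.7 ± 16) lowest. The shares open in all 3 replicates, 90.9%, 96.0% and 94.1%, lay near the 90% of the AP-1 genes and above the 52.4% of all genes.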

How the data were processed

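DNase-seq was made from 3 libraries, numbered by the replicate number in the labels. Per the deposited description files, the assembly is mm10 and the authors called each list per library from filtered alignments; the aligner and both callers are unnamed (not given in the sources used here). The longer of the 2 deposited peak lists per library was used. Its signal has no stated normalization and is a deposited value on a scale that differs between libraries, so it was turned into the percentile among the library's peaks (share of peaks with a lower signal, ties at the middle). The deposited false discovery rate (q-value) of the cut rate reaches 0.05. The footprint lists carry a constant score, which was not used as a measurement, and neither read depth nor counting error can be given. All intervals lay within the 21 chromosomes of GRCm38. The libraries shared 0 identical peak rows.

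Genes and 93526 start sites came from GENCODE M21. Peaks, regions and footprints were placed in a window by their middle, and overlaps needed 1 bp. Python 3.11.15, numpy 2.4.6, pandas 2.3.3, pysam 0.24.0 and matplotlib 3.10.9 were used, after a test on simulated data. The genes and lists were chosen with earlier results of these data known. All 10 AP-1 genes are named; of other lists, the 2 highest and 2 lowest genes by mean promoter percentile and every gene with no promoter peak (1 erythroid marker is not reported here); of neighbours, those whose promoter held the strongest region. Neighbours in an order taken from the same values were compared by exact sign-flip tests, paired by library. Alternatives were the shorter peak list, other promoter widths, start sites and flanks, other overlap rules, and leaving out each replicate. Sequence is the C57BL/6J reference, and CAST alleles were not analysed here.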

Additional observations from a re-analysis of the deposited data

How the results depend on the processing

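The count of 9 AP-1 genes open in all replicates was 9 under each alternative run except leaving out replicate 1, which gave 10, with Batf3 added; the range was 9 to 10. The median promoter percentile of 95.9 fell to 94.3 with the shorter peak list, which ranks against fewer, stronger peaks, and ran from 95.4 to 96.6 when each replicate was left out. Widening the flank to 50 kb gave 189 peaks and 684 footprints in place of 114 and 417. Searching whole peaks in place of the 150 bp around their middle raised the share with a CRE to 1.87%, an ETS core to 9.16%, a GC box to 38.8%, a CArG box to 5.36% and an NF-kB site to 16%; over all peaks these shares were 1.27%, 10.9%, 24.1%, 0.868% and 7.57%, so the CRE turned from lower to higher than the background. Of 72 values for single genes, 68 moved by less than the spread between replicates, and the 4 others were Jund (99.4), Fos (93.0) and Fosb (94.7) with the shorter list and Maff (79.5) with the first start site only. With the shorter list Batf fell from 70.4 to 59.0 and Fosl1 from 83.9 to 77.4, within their wide spreads (SD 17.2 and 9.60). The order of the genes was kept when ranking among promoter peaks. With the first start site only, Maff (79.5) fell below Fosl1 (83.9); without replicate 1, Fosl2 (95.9) passed Fos (94.9); without replicate 3, Fosb (95.9) passed Maff (95.5). No paired comparison between conditions was possible because the libraries form 1 group, and only the neighbours in the order were paired by library. Read depth is unknown.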
